A study of Homo sapiens with 30 samples.

Results

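The comparison described here set the response of one RBPMS knockout population of 5637 cells against the response of the other. 5637 is an established human bladder carcinoma line, grown as an adherent culture. The libraries carried the labels WT1, KO1, WT2 and KO2 with 3 libraries each, and all 12 were 5637 tumor cells, with genotype WT in both control groups and RBPMS-KO in both knockout groups. They were 12 of the 30 libraries of the series, and the other 18 libraries were not used. For each gene, the log2 change from WT2 to KO2 was subtracted from the log2 change from WT1 to KO1, so that a positive difference stood for a gene that was higher in KO1, relative to its own control, than in KO2, and a negative difference for the reverse. Every gene that could be tested entered, 19189 of 60612 listed, and the members described are the 4474 genes whose difference passed an adjusted p of 0.05, with the gene lists and chromosomes in which they lay. The methods and discussion of the study limit the model in several ways. The knockout populations had passed through expansion from single clones, effects of the guides outside RBPMS were named there as possible, and the controls are named sgCtrl in its figures while the labels call them WT. Guide, clone and population therefore cannot be told apart in any difference between KO1 and KO2, and each population counts once, whatever its number of libraries.

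RBPMS is an RNA-binding protein with a single RNA recognition motif that acts in alternative splicing, and it is known for promoting the splicing program of contractile smooth muscle. ANKRD10, an ankyrin repeat protein, is the splicing target on which the study centred. When a gene is edited in a cell line and single cells are grown out, each outgrowth carries the edit together with whatever expression state and chromosome content its founder cell had, and comparing independent populations shows which changes they share and which they do not.

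The libraries held 44593108 to 69723937 counts in genes. In a principal component analysis, component 1 of the log counts held 28.1% of the variance and component 2 held 20.5%, and along them the 6 control libraries lay together while KO1 and KO2 each lay apart from the controls and from each other. Component 3 (7.63%) spread the KO1 libraries, which scored 18.4, -59.8 and 48.7 on it. Of the 10 epithelial markers, all exceeded 10 normalized counts in every library. Among leukocyte markers, 6 of 12 stood at 0 everywhere (among them CD3D, CD3E, ITGAM, MS4A1 and PTPRC), and the list summed to 75.4 to 123 normalized counts in the controls, 126 to 179 in KO1 and 156 to 180.0 in KO2. The 7 endothelial markers, none at 0 throughout, summed to 79.5 to 198 over all libraries. Fibroblast and smooth muscle markers (11 genes, none at 0 throughout) summed to 3422 to 3581 in WT1 and 2164 to 2558 in KO1, against 3516 to 3667 in WT2 and 3165 to 3278 in KO2. Neural markers (9 genes, RBFOX3 at 0) summed to 1979 to 2102 in WT1, 1349 to 1510 in KO1, 2011 to 2203 in WT2 and 1004 to 1081 in KO2. COL1A1 (1805 to 3044 over all libraries) was the largest part of the fibroblast sum and MAP2 (800 to 2041) of the neural sum. Over the 5 neural markers tested, the median log2 change was 1.17 in KO1 and -0.59 in KO2. In KO1 the neural sum and this median thus went in opposite directions. The part of other cell types in the results was not tested. In bulk RNA, fewer cells expressing a gene and less RNA of it per cell cannot be told apart, and nothing in the labels says that libraries of a group came from separate cultures, so p-values measure only the spread between these libraries.

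The targeted gene was lower in both populations. Values are given as normalized counts, raw counts divided by a scale factor per library so that libraries compare, in the order of replicates 1 to 3. RBPMS measured 2270.2, 2460.1 and 2334 in WT1 and 881, 887 and 834 in KO1, beside 2574, 2495 and 2469.7 in WT2 and 1206, 1104 and 1243 in KO2. Every knockout library lay below every control library, and the KO1 libraries lay below the KO2 libraries. The log2 change of RBPMS was -1.44 in KO1 and -1.08 in KO2, and the difference was -0.36 (SE 0.09, adjusted p = 0.00672). ANKRD10 measured 11068, 11352 and 11609 in WT1 and 5068, 5252 and 4767 in KO1, beside 11481, 10909 and 10889 in WT2 and 6644, 6293 and 6757 in KO2. ANKRD10 fell in both populations without overlap, by 1.17 on the log2 scale in KO1 and by 0.76 in KO2, and the difference was -0.42 (SE 0.06, adjusted p = 0.00016). Both genes were thus in the class of falls of unequal size. Reads counted over a whole gene do not tell an edited transcript from an intact one, so the residual counts are no measure of RBPMS protein.

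The response of the transcriptome differed widely between the populations. Adjusted p passed 0.05 in edgeR's quasi-likelihood test of the difference for 4474 genes (23.3% of those tested), of which 2157 (11.2%) were positive and 2317 (12.1%) negative, and 1059 had an absolute log2 difference of at least 1. Each knockout differed from its own control at more genes than that, 7184 (37.4%) in KO1 and 6592 (34.4%) in KO2. The knockouts differed directly from each other at 6259 genes (32.6%), whereas the control groups differed from each other at 205 (1.07%). The median difference over all genes tested was 0.0024 and the median absolute difference 0.298. Of 3930 genes called in both knockouts, 3189 moved in the same direction and 741 (3.86% of all genes tested) in opposite directions.

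The called differences fell into 5 classes. Genes that changed in KO1 but did not pass the test in KO2 numbered 1555 (34.8% of the called genes), and genes that changed in KO2 but did not pass in KO1 numbered 1265 (28.3%). A further 763 (17.1%) changed in the same direction to a different extent, 377 of them rising in both populations and 386 falling in both, with the larger change in KO1 for 418 and in KO2 for 345. Opposite changes made up 741 (16.6%), 325 higher in KO1 and lower in KO2 and 416 the reverse, and 81 of these changed by at least 1 on the log2 scale in each population, 39 in the first sense and 42 in the second. The remaining 150 genes passed for the difference alone. At 365 called genes (8.16%) the controls differed by more than the knockouts did, so that their difference lay mainly between WT1 and WT2.

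**Figure D1:**
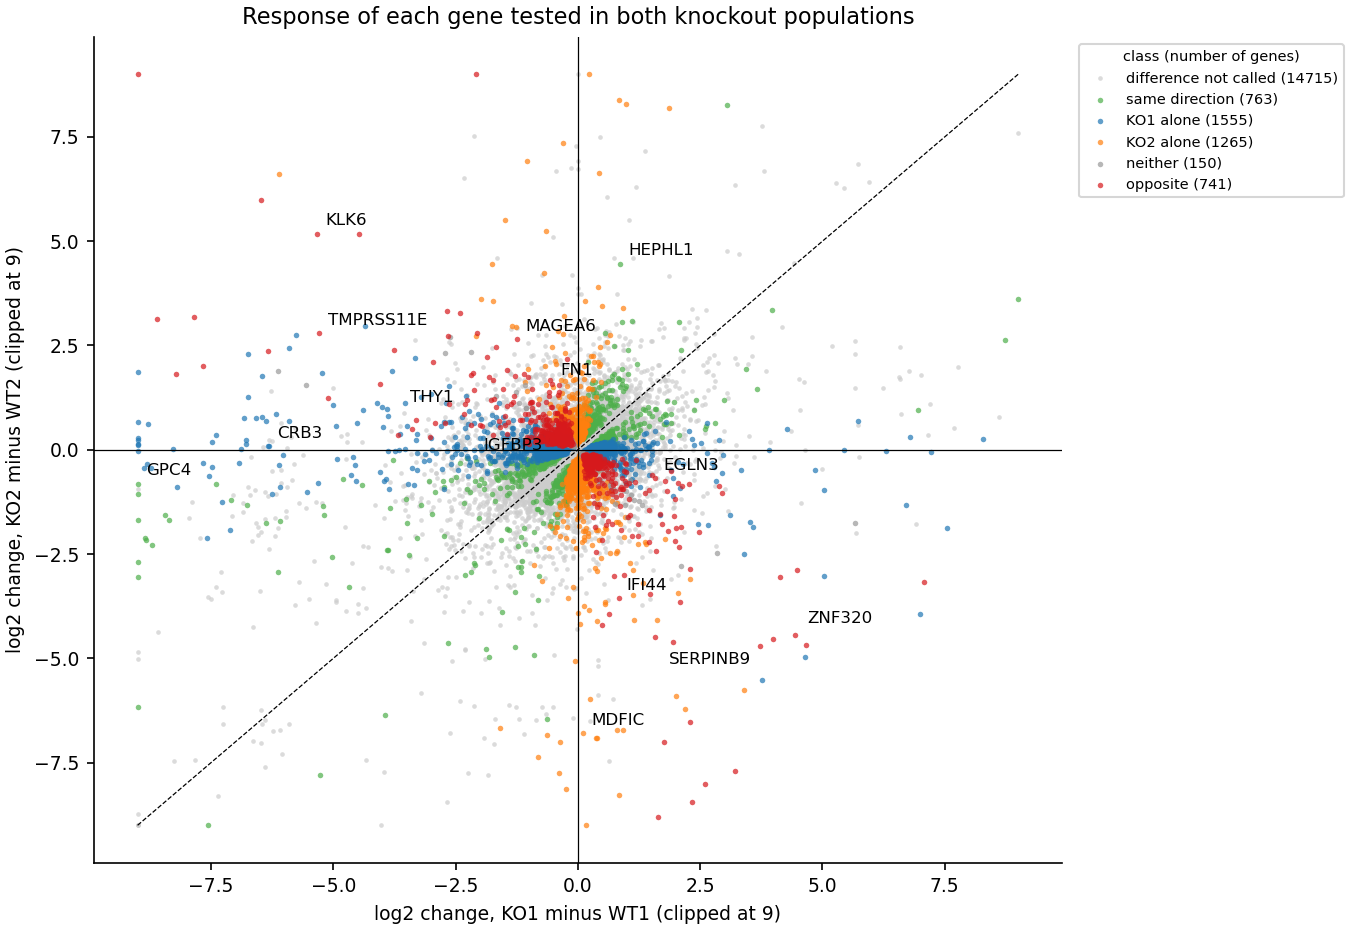
Each point is a gene tested, with its log2 change in KO1 (KO1 minus WT1) on the x axis and in KO2 (KO2 minus WT2) on the y axis, both clipped at 9, colour for the class and a dashed line at equal changes. The 741 genes with opposite changes fill the upper left and lower right quadrants, with KLK6 and TMPRSS11E at one end and ZNF320 and SERPINB9 at the other, while genes changed in 1 population lie along an axis.

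Of the 12 opposite genes taken by the size of their smaller change, those on chromosome 19 were zinc finger genes, higher in KO1, and kallikrein genes, higher in KO2. Their promoter windows, 250 bases before to 50 bases after the RefSeq start in GRCh38.p14, are printed 5′ to 3′ because the members move together from low control levels, with capitals marking the dinucleotide CG, the site of DNA methylation. RefSeq gives 2 windows for ZNF320 and for KLK10, and the first listed is shown. 
ZNF320 chr19:52897645-52897944 (- strand): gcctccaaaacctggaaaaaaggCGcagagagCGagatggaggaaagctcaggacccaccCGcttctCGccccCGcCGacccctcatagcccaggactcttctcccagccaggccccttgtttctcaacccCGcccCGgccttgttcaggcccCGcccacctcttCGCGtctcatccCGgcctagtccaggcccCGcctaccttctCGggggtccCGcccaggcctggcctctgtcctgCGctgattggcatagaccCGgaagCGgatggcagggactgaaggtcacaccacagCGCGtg
ZNF347 chr19:53159004-53159303 (- strand): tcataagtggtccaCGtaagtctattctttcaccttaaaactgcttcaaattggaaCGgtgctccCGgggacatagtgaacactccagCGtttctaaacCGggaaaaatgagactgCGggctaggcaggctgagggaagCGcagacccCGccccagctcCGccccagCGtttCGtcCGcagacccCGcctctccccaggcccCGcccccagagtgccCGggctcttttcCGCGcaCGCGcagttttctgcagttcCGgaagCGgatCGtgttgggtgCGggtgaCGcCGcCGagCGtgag
KLK6 chr19:50969542-50969841 (- strand): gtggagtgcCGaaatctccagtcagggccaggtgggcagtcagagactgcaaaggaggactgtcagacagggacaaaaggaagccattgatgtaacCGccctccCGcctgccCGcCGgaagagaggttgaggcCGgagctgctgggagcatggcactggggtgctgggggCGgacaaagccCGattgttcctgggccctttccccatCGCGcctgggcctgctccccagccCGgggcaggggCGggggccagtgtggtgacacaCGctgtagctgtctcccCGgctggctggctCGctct
KLK10 chr19:51019812-51020111 (- strand): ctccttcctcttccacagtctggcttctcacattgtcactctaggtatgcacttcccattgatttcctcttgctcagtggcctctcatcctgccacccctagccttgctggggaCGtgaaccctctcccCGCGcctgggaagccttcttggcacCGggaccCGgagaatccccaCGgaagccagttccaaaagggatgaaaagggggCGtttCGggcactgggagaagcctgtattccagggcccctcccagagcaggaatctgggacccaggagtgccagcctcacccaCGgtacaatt
The zinc finger windows held 20 (ZNF320) and 27 (ZNF347) CG dinucleotides, the kallikrein windows 15 (KLK6) and 9 (KLK10), beside a median of 25 over the windows of all genes tested. Counts of CG describe the letters of the window and not its methylation, which was not measured in these libraries.

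The zinc finger genes encode DNA-binding proteins of the C2H2 class, many of which carry a KRAB domain and repress transposable elements. ZNF320 measured 26.8, 22.7 and 27.6 in WT1 and 618, 535 and 529 in KO1, beside 26.9, 33.5 and 37.9 in WT2 and 0, 4.64 and 0 in KO2. Both controls were low, KO1 lay far above them, and KO2 was at or near 0 with no overlap on either side. The log2 change of ZNF320 was 4.44 in KO1 and -4.45 in KO2, a difference of 8.88 (SE 0.62, adjusted p = 5e-08). KO2 replicate 2 was the only KO2 library with counts, and the fitted difference was 12.50 without KO2 replicate 2. ZNF888 measured 52.6, 33.5 and 43.2 in WT1 and 514, 644 and 542 in KO1, beside 90.1, 73.2 and 83.2 in WT2 and 5.2, 0 and 3.65 in KO2. ZNF888 showed the same order of groups, and its controls did not overlap either, WT2 lying above WT1. Its log2 change was 3.71 in KO1 and -4.69 in KO2 and the difference 8.41 (SE 0.50, adjusted p = 6.83e-09). ZNF347 measured 23.5, 13 and 32.8 in WT1 and 423, 405 and 412 in KO1, beside 32.1, 4.18 and 16.5 in WT2 and 4.16, 0 and 1.82 in KO2. KO1 again stood alone and KO2 lay just below WT2, whose lowest library had 4.18 counts. The difference for ZNF347 was 7.19 (SE 0.85, adjusted p = 1.21e-05), from 4.14 in KO1 and -3.05 in KO2, and ranged from 6.46 without WT2 replicate 1 to 8.13 without KO2 replicate 1. ZNF321P, an annotated pseudogene, measured 208, 252 and 151 in KO1, 14.7, 24.1 and 37.9 in WT2 and 0 in each library of KO2. It was at least 8.52-fold lower in KO2 than in WT2, taking 3 counts per library as the floor, and its fitted difference of 10.90 depends on the prior count. Reads of pseudogenes and neighbouring zinc finger genes can be shared between copies, so the split among family members is uncertain.

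These genes were neighbours. From ZNF880 to ZNF347 (chr19:52369917-53159075, GRCh38), 19 genes were tested, 18 had a called positive difference and 15 changed in opposite directions, with a median difference of 4.94 from medians of 1.94 in KO1 and -2.86 in KO2. The bounds of the run were drawn after the values were seen. The exception inside it was ZNF611, at -0.15 in KO1 and -0.33 in KO2, between ZNF83 and ZNF600. ZNF160 and ZNF83 changed in KO2 alone, and ZNF137P passed for the difference and in neither knockout. Some differences were moderate, such as ZNF808 at 0.67 in KO1 and -0.96 in KO2, and others large, such as ZNF528 at 1.94 in KO1 and -4.61 in KO2. Over chromosome 19 as a whole, 86 of 236 ZNF genes tested (36.4%) had a called difference, 56 positive, 30 negative and 22 opposite, beside 56 of 240 ZNF genes elsewhere (23.3%), 45 positive and 11 negative, against 23.3% of all genes tested. Of all genes tested on chromosome 19, 556 of 1293 (43%) were called and 154 were opposite. Most of the chromosome 19 ZNF genes that changed in a population fell. In KO1, 48 rose and 111 fell, and in KO2, 3 rose and 126 fell. Their median log2 change was -0.33 in KO1 and -0.38 in KO2, with a median difference of 0.035.

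ZFP69, a KRAB zinc finger gene on chromosome 1, behaved like the run. ZFP69 measured 20.1, 17.3 and 37.1 in WT1 and 128, 221 and 111 in KO1, beside 32.1, 23 and 41.2 in WT2 and 0 in each library in KO2. KO1 lay above both controls, and KO2 was at least 10.7-fold lower than WT2 with the floor of 3 counts per library (fitted difference 10.62). SERPINB9 on chromosome 6 encodes an intracellular serpin that inhibits granzyme B. SERPINB9 measured 112, 89.7 and 134 in WT1 and 1773, 1757 and 1858 in KO1, beside 110.1, 69 and 113 in WT2 and 12.5, 0 and 0 in KO2. The KO1 libraries lay above all others and 2 of the 3 KO2 libraries were at 0. The log2 change of SERPINB9 was 4.0 in KO1 and -4.53 in KO2, and the difference was 8.53 (SE 0.57, adjusted p = 2.69e-08). The fitted difference was 13.62 without KO2 replicate 1, the only KO2 library with counts.

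The kallikreins are secreted serine proteases of stratified epithelia, known from skin for cleaving desmosomal proteins. KLK6 measured 50.3, 65.9 and 31.1 in WT1 and 0, 0 and 3.37 in KO1, beside 61.5, 53.4 and 47 in WT2 and 1830.0, 1973 and 2081 in KO2. Levels were low and alike in both controls, almost absent in KO1 and high in KO2. KLK6 rose by 5.18 on the log2 scale in KO2, and in KO1 3 counts were left in all, a ratio of WT1 over KO1 of 44.2 with an exact 95% counting interval of 14.8 to 217. Its difference was -10.51 (SE 0.51, adjusted p = 7.68e-10), and -13.79 without KO1 replicate 3, the only KO1 library with counts. KLK10 measured 77.2, 30.3 and 24.2 in WT1 and 0, 0 and 5.62 in KO1, beside 53.7, 41.8 and 53.5 in WT2 and 1624, 1865 and 1912 in KO2. KLK10 repeated the order of KLK6, with a difference of -9.65 (SE 0.67, adjusted p = 4.68e-08) from -4.48 in KO1 and 5.17 in KO2, and rested on the same KO1 library (-13.60 without KO1 replicate 3). KLK5 measured 31.3, 23.8 and 30.2 in WT1 and 0 in each library in KO1, beside 19.9, 15.7 and 28 in WT2 and 143, 189 and 249.8 in KO2. KLK5 was at least 9.48-fold lower in KO1 than in WT1 and rose by 3.18 in KO2 (adjusted p = 6.74e-06). Its fitted difference was -11.01. From KLK5 to KLK11 (chr19:50943303-51028039), 7 genes were tested, 5 had a called negative difference and 4 were opposite, a run again bounded after the values were seen. KLK9 stood at 0 in WT1, KO1 and WT2 and at 249 ± 13 normalized counts (SD, n = 3) in KO2. Its difference could not be estimated with no counts in WT1 and KO1, and the same held for KLK7. Of 8 kallikrein genes tested anywhere, 5 (62.5%) were called, all negative. Over all genes tested, 23.3% were called, 12.1% were called negative and 3.86% were opposite. For 5 of the 8, a group had no library above 3 normalized counts. KLK9 passed the count filter through KO2 alone, where it was high, so the number tested depends in part on KO2.

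Other genes took the same direction as the kallikreins on other chromosomes. TMPRSS11E on chromosome 4 encodes a membrane-anchored serine protease of epithelia. TMPRSS11E measured 819, 788 and 905 in WT1 and 14.1, 42.5 and 12.4 in KO1, beside 716, 713 and 869.9 in WT2 and 5509, 5303 and 5099 in KO2. KO1 and KO2 lay on opposite sides of the overlapping controls. The change was -5.28 in KO1 and 2.79 in KO2, and the difference was -8.07 (SE 0.25, adjusted p = 2.34e-12), or -8.75 without KO1 replicate 2. NALF1 on chromosome 13 encodes an auxiliary subunit of the sodium leak channel. NALF1 measured 40.3, 59.4 and 46.6 in WT1 and 0 in each library in KO1, beside 45.1, 23 and 37.9 in WT2 and 334, 324 and 286 in KO2. It was at least 16.3-fold lower in KO1 and rose by 3.14 on the log2 scale in KO2 (fitted difference -11.75). GABRQ, a GABA-A receptor subunit gene on chromosome X, measured 24.6, 20.5 and 29.4 in WT1, 0, 15.9 and 0 in KO1, 27.7, 26.2 and 14 in WT2 and 190.4, 242 and 229.7 in KO2. KO1 stayed below WT1 although 1 of its libraries reached 15.9, and the difference was -5.68 (SE 0.99, adjusted p = 0.000495). It was -10.96 without KO1 replicate 2.

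**Figure D2:**
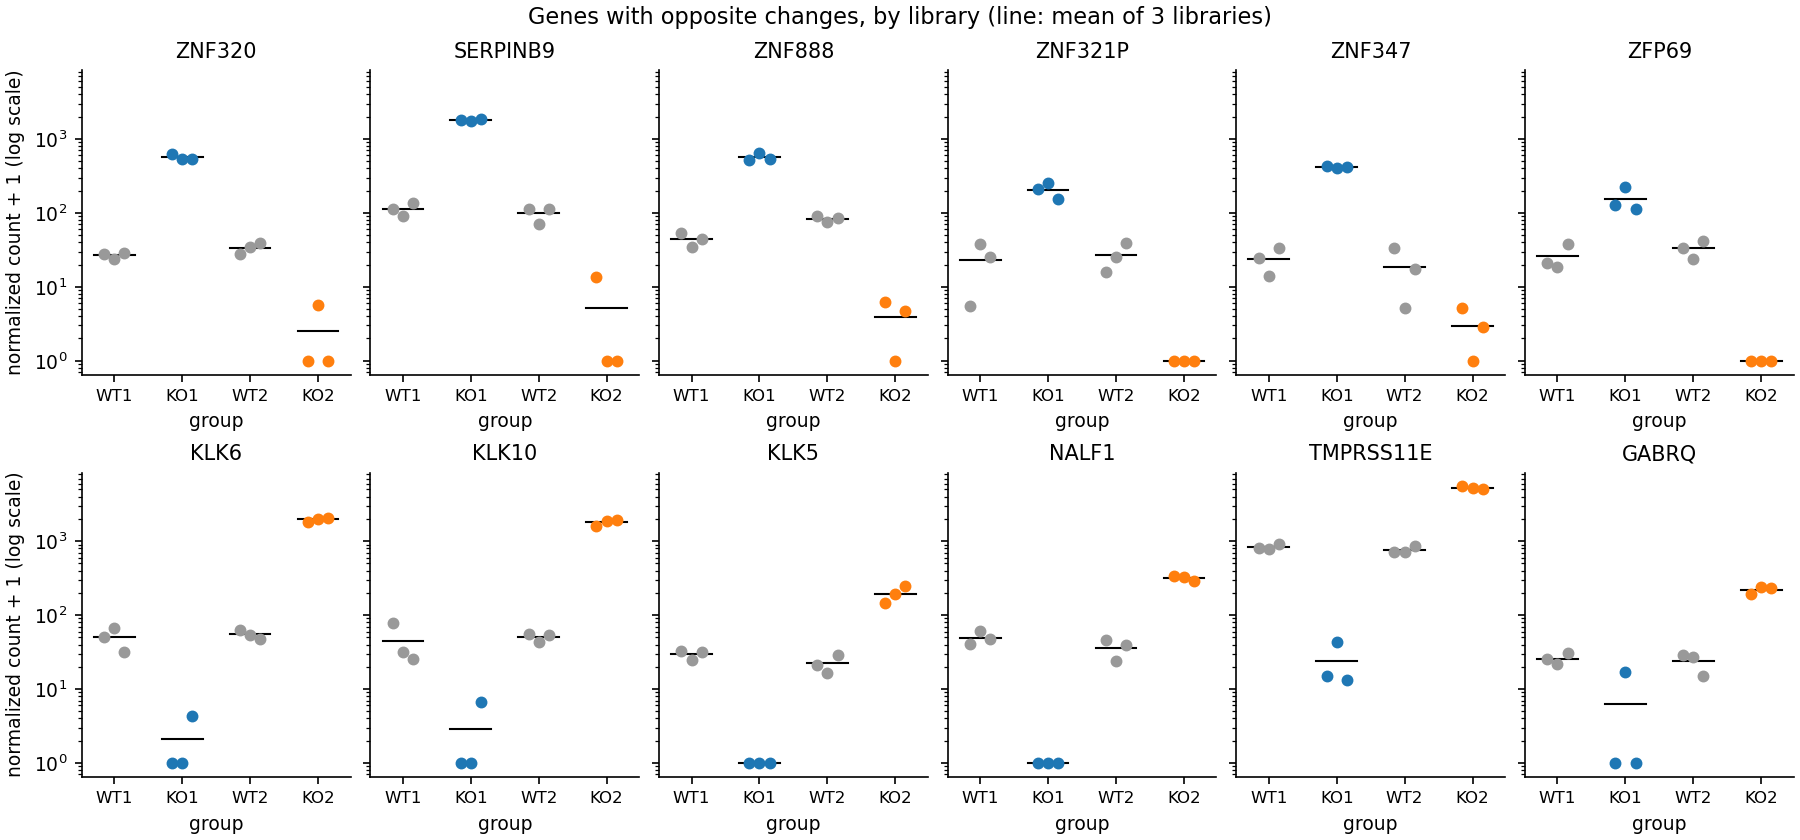
Normalized count plus 1 on a log axis in each library of WT1, KO1, WT2 and KO2 (points, with a line at the mean of 3 libraries) for the 12 named genes with opposite changes. The upper 6 panels show KO1 above and KO2 below the controls, as for ZNF320 with 529 to 618 in KO1 and 0 to 4.64 in KO2, and the lower 6 show the reverse.

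The MAGE-A genes on chromosome X encode cancer-testis antigens and were tested with other cancer-testis genes. MAGEA3, MAGEA6 and MAGEA12 were opposite. MAGEA6 measured 769, 678 and 704 in WT1 and 299.9, 317 and 292 in KO1, beside 740.2, 667 and 712 in WT2 and 4306, 4671 and 4285 in KO2. The controls overlapped, KO1 lay below and KO2 above. MAGEA6 changed by -1.24 in KO1 and 2.64 in KO2, a difference of -3.89 (SE 0.10, adjusted p = 6.86e-13). MAGEA3 changed by -1.74 in KO1 and 1.67 in KO2 and MAGEA12 by -3.67 in KO1 and 0.35 in KO2, with differences of -3.41 and -4.02. Of 15 SPANX, MAGE, GAGE and PAGE genes tested, 7 (46.7%) had a called difference, 1 positive and 6 negative, and the median difference was -1.09 (median log2 change 0.87 in KO1 and 1.22 in KO2). Those 3 were the opposite genes of the list. Over all genes tested, 23.3% were called and 3.86% were opposite. These copies are near identical, and how their shared reads were divided is uncertain. By chromosome, the 81 strongly opposite genes included 29 on chromosome 19 (20 higher and 9 lower in KO1) and 7 on chromosome 7. They also included 6 on chromosome X, all lower in KO1, and 5 on chromosome 9, all higher in KO1. Of the 19189 genes tested, 1293 lie on chromosome 19, 952 on chromosome 7, 620 on chromosome X and 770 on chromosome 9. An excess on a chromosome was not tested.

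Several genes changed in KO1 while KO2 overlapped WT2. ZNF90 measured 7.83, 23.8 and 14.7 in WT1 and 689, 685 and 654 in KO1, beside 13, 23 and 15.7 in WT2 and 19.8, 9.29 and 21 in KO2. Only the KO1 libraries stood apart from the rest, and the difference for ZNF90, a KRAB zinc finger gene, was 5.45 (SE 0.49, adjusted p = 6.18e-07). ZNF429 and ZNF732, of the same family, rose by 3.91 and 2.96 in KO1 and measured 0.01 and -0.12 in KO2, with differences of 3.90 (4.67 without WT1 replicate 1) and 3.08. CRB3 measured 348, 293 and 275 in WT1 and 0, 7.97 and 4.49 in KO1, beside 283, 301 and 292 in WT2 and 344, 303 and 281 in KO2. CRB3 encodes an apical polarity protein of epithelia. It was near 0 in KO1, while the KO2 range overlapped that of WT2, and the difference was -6.41 (SE 0.50, adjusted p = 1.39e-07), ranging from -7.25 without KO1 replicate 2 to -5.69 without KO1 replicate 1. SIGLEC10-AS1 measured 167, 154 and 206 in WT1 and 0 in each library in KO1, beside 167, 143 and 123 in WT2 and 175, 137 and 113 in KO2. The antisense transcript SIGLEC10-AS1 was at least 58.5-fold lower in KO1 and SIGLEC10-AS2 at least 27.9-fold lower, with fitted differences of -10.43 and -9.49. Both lie on chromosome 19, as do CRB3, ZNF90 and ZNF429. The median difference over all genes tested on that chromosome was -0.39. Whether the counting used strand is not given in the sources used here, so antisense reads may include reads of their partner gene.

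The reverse pattern, a change in KO2 with KO1 overlapping WT1, held other genes. CREB5, a transcription factor of the CREB family, measured 14.7, 59.6 and 46.1 in WT2 and 487, 477 and 449 in KO2, beside 24.6, 57.3 and 58.7 in WT1 and 51, 63.8 and 41.6 in KO1. Its KO2 libraries lay above all others, and the difference was -3.42 (SE 0.55, adjusted p = 0.000231). RNASE7, an antimicrobial ribonuclease of epithelia, rose by 1.80 in KO2 and measured -0.15 in KO1 (difference -1.95). C15orf48, which encodes a mitochondrial protein induced in inflammation, rose by 2.01 in KO2 and measured 0.12 in KO1 (difference -1.88). MDFIC measured 678, 563 and 574 in WT1 and 610.4, 681 and 657 in KO1, beside 637, 482 and 629 in WT2 and 4.16, 9.29 and 2.73 in KO2. MDFIC encodes a cytoplasmic regulator of transcription factors. It was almost lost in KO2, while KO1 and WT1 overlapped, and the difference was 6.89 (SE 0.30, adjusted p = 2e-10), or 7.47 without KO2 replicate 2. MAP10, a microtubule-associated protein gene, measured 362, 249 and 285 in WT2 and 0 in each library of KO2, at least 99.6-fold lower, with a fitted difference of 11.40. CXXC4, an inhibitor of WNT signalling, fell by 4.18 in KO2 and measured 0.03 in KO1 (difference 4.21).

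Where both populations moved the same way, the extent could still differ widely. HEPHL1 measured 974, 902 and 836 in WT1 and 1552, 1703 and 1641 in KO1, beside 384, 394 and 372 in WT2 and 8761, 8336 and 8227 in KO2. HEPHL1 encodes a copper-dependent ferroxidase. Both knockouts lay above their controls, KO2 far above, and the controls themselves did not overlap. The change was 0.85 in KO1 and 4.46 in KO2, and the difference was -3.61 (SE 0.09, adjusted p = 4.31e-13). IGFBP5 measured 604, 496 and 599.5 in WT1 and 0 in each library in KO1, beside 359, 425 and 292 in WT2 and 54.1, 65 and 48.3 in KO2. IGFBP5, a binding protein for insulin-like growth factors, was at least 189-fold lower in KO1 and fell by 2.69 on the log2 scale in KO2, with WT1 above WT2 and a fitted difference of -9.46. GPC4 measured 3817, 3832 and 3721 in WT1 and 0, 21.3 and 0 in KO1, beside 4046, 3642 and 3285 in WT2 and 2098, 2141 and 2026 in KO2. GPC4, a cell surface heparan sulfate proteoglycan, was nearly lost in KO1 and stood below WT2, without overlap, in KO2, for a difference of -8.52 (SE 0.36, adjusted p = 1.61e-10). Its fitted difference was -14.11 without KO1 replicate 2. POF1B, an actin-binding protein of epithelial junctions, was at least 108-fold lower in KO1 and fell by 3.05 in KO2 (fitted difference -8.29). SPANXC, a cancer-testis gene with near-identical copies, measured 161, 137 and 156 in KO1 against 0 in all WT1 libraries, at least 50.4-fold higher, and 38.5, 51.1 and 54.7 in KO2 against 0, 0 and 10.7 in WT2. Its called difference of 6.62 rested on WT2 replicate 3, without which the value was 1.65 with an adjusted p of 1.

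Among gene lists, those of mesenchymal, matrix and mechanical signalling genes leaned to KO2. Of 32 mesenchymal genes tested, 16 (50%) had a called difference, 2 positive and 14 negative, and the median difference was -0.43 (median log2 change -0.06 in KO1 and 0.47 in KO2). These counts stand beside 23.3% called and a median of 0.0024 over all genes tested. FN1 measured 112471, 109322 and 103562 in WT1 and 77889, 74577 and 73784 in KO1, beside 92410.4, 85314 and 82081 in WT2 and 263093, 258892 and 257398 in KO2. FN1 encodes fibronectin. KO1 lay below WT1 and KO2 above WT2, with WT1 above WT2, and the difference was -2.11 (SE 0.06, adjusted p = 1.5e-12). CDH2 measured 4553, 4157 and 4317 in WT1 and 2375, 2221 and 2213 in KO1, beside 3783, 3681 and 3847 in WT2 and 10516, 10019 and 10661 in KO2. CDH2, the gene of N-cadherin, showed the same order and a difference of -2.40 (SE 0.07, adjusted p = 1.5e-12). THY1, a surface glycoprotein of fibroblasts, changed by -2.32 in KO1 and 0.85 in KO2, a difference of -3.17 (SE 0.19, adjusted p = 6.83e-09). LUM, the proteoglycan lumican, was at 0 in 2 of the 3 KO1 libraries. LUM fell in both populations, further in KO1 (-6.13 in KO1 and -2.92 in KO2, difference -3.21, or -7.87 without KO1 replicate 2). The lean did not extend to every mesenchymal gene. VIM, the intermediate filament vimentin, rose in both (3.98 in KO1 and 3.35 in KO2) with a positive difference of 0.62. Collagens were called for 11 of 25 (44%), 2 positive and 9 negative, with a median difference of only -0.07 (median log2 change -0.42 in KO1 and 0.02 in KO2). COL8A1 led them at -1.67 in KO1 and 2.46 in KO2, while COL12A1 fell in KO1 by 0.81 and measured -0.04 in KO2. Outside chromosomes 9, 19 and 21, all 8 called collagens were negative. Of 9 EMT transcription factors tested, 3 (33.3%) were called, SNAI2 and FOXC1 positive and TCF3 negative. TCF3 lies on chromosome 19 and changed by -0.89 in KO1 and 0.20 in KO2. The call for FOXC1 was lost in 7 of 16 alternatives. SNAI2 had a difference of 0.53, with a log2 difference of 0.05 between KO1 and KO2, whose libraries overlapped, and of -0.47 between WT1 and WT2.

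Of 28 YAP and TEAD pathway genes tested, 18 (64.3%) had a called difference, 0 positive and 18 negative, and the median difference was -0.46 (median log2 change -0.12 in KO1 and 0.42 in KO2). YAP and TAZ are coactivators that enter the nucleus in spread or stretched cells and act through TEAD factors. ANKRD1 measured 333, 478 and 422 in WT1 and 67.7, 29.2 and 62.9 in KO1, beside 288, 275 and 231 in WT2 and 457, 412 and 363 in KO2. ANKRD1, a classical target, was below its control in KO1 and above it in KO2, and the difference was -3.55 (SE 0.33, adjusted p = 9e-07). IGFBP3, a binding protein for insulin-like growth factors, changed by -2.19 in KO1 and 0.61 in KO2, for a difference of -2.79 (SE 0.07, adjusted p = 4.31e-13). CCN2, the matrix protein also called CTGF, measured 669, 704 and 749 in WT1, 296, 252 and 407 in KO1, 579, 532 and 506 in WT2 and 769.9, 830.2 and 1046 in KO2. Its groups did not overlap with their controls, WT1 lay above WT2, and the difference was -1.86 (SE 0.21, adjusted p = 9.23e-06). TGFB2, a ligand of the TGF-beta family, rose in both (0.20 in KO1 and 2.10 in KO2). In all, 9 of the 28 genes were opposite, beside 3.86% of all genes tested.

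Of 24 integrin and laminin genes tested, 15 (62.5%) had a called difference, 2 positive and 13 negative, and the median difference was -0.36 (median log2 change 0.14 in KO1 and 0.52 in KO2). The laminin chain LAMA4 and the fibronectin receptor subunit ITGA5 were opposite, at -0.35 in KO1 and 0.60 in KO2 for LAMA4. The call of the leukocyte integrin chain ITGB2 (difference -1.0) was lost in 11 of 16 alternatives. Of 32 matrix protease and plasminogen activator genes tested, 20 (62.5%) had a called difference, 3 positive and 17 negative, and the median difference was -0.42 (median log2 change -0.08 in KO1 and 0.32 in KO2). ADAMTS15, a secreted metalloprotease of the matrix, changed by -1.17 in KO1 and 0.71 in KO2 with a difference of -1.88 (SE 0.14, adjusted p = 1.1e-07), and WT1 exceeded WT2 by 0.93. MMP1, interstitial collagenase, ran the other way. MMP1 measured 10873, 11909 and 11757 in WT1 and 12286, 12629 and 12061 in KO1, beside 11219.6, 12256 and 12048 in WT2 and 3445, 3717 and 3672 in KO2. Its KO2 libraries lay below all others, and the difference was 1.81 (SE 0.07, adjusted p = 3.39e-11). MMP11 and MMP16 had differences of -1.31 and -1.29.

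Of 24 heparan sulfate genes tested, 15 (62.5%) had a called difference, 2 positive and 13 negative, and the median difference was -0.37 (median log2 change -0.15 in KO1 and 0.20 in KO2). Heparan sulfate chains bind growth factors at the cell surface. After GPC4, the genes of the sulfotransferases HS6ST3 and HS6ST2 led the list and fell in both populations. HS6ST2 changed by -5.03 in KO1 and -2.57 in KO2 (difference -2.47). HS6ST3 was at 0 in KO1, at least 57-fold lower than WT1, and measured 3.12, 0 and 3.65 in KO2, and its call (fitted difference -4.26) was lost in 10 of 16 alternatives. NDST2, another enzyme of the pathway, had a difference of -1.16, with WT1 above WT2 by 0.97 and overlapping knockouts. Of 19 IGF pathway genes tested, 11 (57.9%) had a called difference, 3 positive and 8 negative, and the median difference was -0.18 (median log2 change -0.35 in KO1 and 0.05 in KO2). Besides IGFBP5 and IGFBP3, IGFBP2 fell in both (-2.99 in KO1 and -1.55 in KO2) and STC1 rose in both (1.71 in KO1 and 0.31 in KO2).

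Of 38 TGF-beta and BMP pathway genes tested, 17 (44.7%) had a called difference, 3 positive and 14 negative, and the median difference was -0.15 (median log2 change -0.17 in KO1 and -0.06 in KO2). BMP4 fell in both (-1.57 in KO1 and -0.65 in KO2), BMP2 fell in KO1 by 0.68 and measured 0.26 in KO2, and the antagonist FST rose in both (0.40 in KO1 and 1.29 in KO2). Of 39 WNT pathway genes tested, 16 (41%) had a called difference, 7 positive and 9 negative, and the median difference was -0.08 (median log2 change -0.13 in KO1 and -0.05 in KO2). SFRP1, a secreted WNT inhibitor, fell in both populations (-1.29 in KO1 and -4.73 in KO2), for a positive difference of 3.44 (SE 0.20, adjusted p = 5.02e-09), while ROR2, a WNT5A receptor, was opposite (0.38 in KO1 and -1.38 in KO2) and lies on chromosome 9. Of 35 HOX cluster genes tested, 13 (37.1%) had a called difference, 1 positive and 12 negative, and the median difference was -0.24 (median log2 change -0.13 in KO1 and -0.06 in KO2). HOXA5 fell in KO1 by 1.12 and measured 0.10 in KO2, and HOXD13, the 1 positive gene of the list, was opposite (0.79 in KO1 and -0.36 in KO2).

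Genes of signalling and inflammation also leaned to KO2, though in these lists both populations often rose. Of 29 chemokine and cytokine genes tested, 20 (69%) had a called difference, 6 positive and 14 negative, and the median difference was -0.51 (median log2 change 0.33 in KO1 and 0.97 in KO2). IL11 measured 178, 131 and 167 in WT1 and 266, 198 and 231 in KO1, beside 134, 129 and 157 in WT2 and 1027, 1007 and 902 in KO2. IL11, a cytokine of the IL-6 family, rose in both populations without overlap, more in KO2, and the difference was -2.25 (SE 0.21, adjusted p = 1.22e-06). IL6 measured 33.5, 25.9 and 15.5 in WT1, 20.2, 45.2 and 76.4 in KO1, 21.7, 37.7 and 22.2 in WT2 and 199.8, 240.3 and 410.2 in KO2. KO2 lay above all other groups while KO1 overlapped WT1, and the difference was -2.47 (SE 0.63, adjusted p = 0.00882). The neutrophil chemokines CXCL8 and CXCL2 were opposite, CXCL8 at -0.38 in KO1 and 1.39 in KO2 with a difference of -1.78 (SE 0.20, adjusted p = 9.06e-06). The KO1 falls of CXCL8 and CXCL2 were near the threshold (adjusted p = 0.0478 and 0.0397). The 6 positive genes included TNFSF10, which fell in both (-0.42 in KO1 and -1.75 in KO2), and CCL20, which rose in both (1.60 in KO1 and 0.97 in KO2). NF-kappaB subunits and feedback genes were called for 9 of 20 (45%, beside 23.3% of all genes), 2 positive and 7 negative, led by TNFAIP3 at -0.43 in KO1 and 0.30 in KO2, and 4 of the 7 negative genes lie on chromosome 9, 19 or 21.

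Of 33 AP-1 and MAP kinase feedback genes tested, 15 (45.5%) had a called difference, 4 positive and 11 negative, and the median difference was -0.31 (median log2 change 0.16 in KO1 and 0.68 in KO2). FOSB, ATF3 and the phosphatase gene DUSP1, all immediate early genes, had differences of -2.20, -1.56 and -1.45. In KO2, ATF3 measured 424, 381 and 795 and DUSP1 698, 764 and 1126, and FOSB 253 in replicate 3 and at most 111 in the others. Replicate 3 was the highest KO2 library for each, and without it the differences were -1.65, -1.15 and -1.21, all still called. ATF3 was opposite (-0.88 in KO1 and 0.68 in KO2), and PHLDA1 rose in both (0.32 in KO1 and 1.38 in KO2). WT2 measured 346, 284 and 367 for ATF3, and the edgeR test of its KO2 rise gave an adjusted p of 0.0271. Whether ATF3 stays opposite without KO2 replicate 3 is not given here. Of 15 EGF receptor and ligand genes tested, 7 (46.7%) had a called difference, 1 positive and 6 negative, and the median difference was -0.20 (median log2 change 0.13 in KO1 and 0.40 in KO2). EREG measured 2805, 2487 and 2544 in WT1 and 4129.8, 4473 and 4537 in KO1, beside 1646, 1520.1 and 1545 in WT2 and 9287, 8438 and 8889 in KO2. EREG, the ligand epiregulin, rose in both populations without overlap, and the difference was -1.75 (SE 0.08, adjusted p = 6.11e-10). Amphiregulin (AREG) followed at 0.56 in KO1 and 1.61 in KO2, the feedback inhibitor ERRFI1 was opposite (-0.14 in KO1 and 0.65 in KO2), and the call for ERBB4 (difference -1.78) was lost in 7 of 16 alternatives. In both lists the fitted WT1 level of each of these leaders lay above that of WT2, by 0.73 for EREG and 0.41 for AREG on the log2 scale.

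Antigen presentation and interferon genes leaned to KO1. Of 19 MHC class I and II presentation genes tested, 15 (79%) had a called difference, 15 positive and 0 negative, and the median difference was 0.74 (median log2 change 0.79 in KO1 and -0.03 in KO2). No member was negative, and none lies on chromosome 9, 19 or 21. HLA-B measured 2754, 2570.2 and 2689 in WT1 and 7879.5, 7074 and 7958 in KO1, beside 2654, 2926 and 2641 in WT2 and 2519.8, 2792 and 2740.4 in KO2. HLA-B, a class I heavy chain, was higher in all KO1 libraries, while KO2 overlapped WT2, and the difference was 1.55 (SE 0.09, adjusted p = 3.53e-09). PSMB9, an immunoproteasome subunit, rose by 1.45 in KO1 and measured 0.09 in KO2, a difference of 1.37 (SE 0.16, adjusted p = 1.08e-05). CIITA measured 228, 185 and 88.1 in WT1 and 456, 588 and 710.1 in KO1, beside 277, 165 and 104 in WT2 and 99.9, 90.6 and 85.7 in KO2. CIITA, the coactivator of class II genes, was above its control in KO1 and below it in KO2, and the difference was 2.80 (SE 0.48, adjusted p = 0.000443). Of its class II targets, CD74 was opposite (2.47 in KO1 and -1.97 in KO2). HLA-DRA was low, at 1.44 ± 2.49 in WT1 and 20.4 ± 3.03 in KO1 (SD, n = 3), and its response in KO2 is not given here.

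Of 45 interferon-stimulated genes tested, 19 (42.2%) had a called difference, 15 positive and 4 negative, and the median difference was 0.23 (median log2 change 0.14 in KO1 and -0.11 in KO2). Of these, 10 were opposite, a class that held 3.86% of all genes tested. IFI44 measured 406, 467 and 459.6 in WT1 and 644, 883 and 847 in KO1, beside 455, 410.1 and 393 in WT2 and 47.9, 19.7 and 38.3 in KO2. IFI44 rose in KO1 and was nearly lost in KO2, without overlap, and the difference was 4.38 (SE 0.28, adjusted p = 2.09e-08). Its neighbour IFI44L was alike (0.94 in KO1 and -3.0 in KO2), with a difference of 3.94, or 4.70 without KO2 replicate 3, and IFI35 changed by 2.04 in KO1 and -0.80 in KO2, for a difference of 2.84 (SE 0.36, adjusted p = 2.16e-05). MX1 measured 292, 191 and 168 in WT1 and 76.5, 87.7 and 73 in KO1, beside 337, 269 and 253 in WT2 and 629, 632 and 531 in KO2. MX1, an antiviral GTPase on chromosome 21, ran against the list, below its control in KO1 and above it in KO2, with a difference of -2.51 (SE 0.28, adjusted p = 6.92e-06). The interferon list thus did not move as one group.

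Of 34 glycolysis and hypoxia genes tested, 19 (55.9%) had a called difference, 15 positive and 4 negative, and the median difference was 0.25 (median log2 change 0.54 in KO1 and 0.13 in KO2). EGLN3 measured 619.6, 646 and 641 in WT1 and 1991, 1765 and 1931 in KO1, beside 616, 656 and 736 in WT2 and 413, 486 and 357 in KO2. EGLN3, an oxygen-sensing prolyl hydroxylase induced by HIF, was above its control in KO1 and below it in KO2, and the difference was 2.26 (SE 0.15, adjusted p = 2.5e-08). BNIP3 measured 1464, 1393 and 1389 in WT1 and 3179.8, 3418 and 3582 in KO1, beside 1617, 1581 and 1699 in WT2 and 1525, 1506 and 1822 in KO2. BNIP3, a mitophagy receptor, rose in KO1, while KO2 overlapped WT2, a difference of 1.27 (SE 0.10, adjusted p = 2.25e-07). PDK1, which restrains pyruvate oxidation, followed at 0.97 in KO1 and -0.02 in KO2 (difference 0.99). The call for CA12, a carbonic anhydrase (difference 1.14), was lost in 7 of 16 alternatives, and WT1 exceeded WT2 by 1.0. Without the genes of chromosomes 9, 19 and 21, 17 of 31 were called, 14 positive and 3 negative.

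Of 81 cytosolic ribosomal protein genes tested, 44 (54.3%) had a called difference, 33 positive and 11 negative, and the median difference was 0.21 (median log2 change 0.18 in KO1 and -0.03 in KO2). RPS26 measured 9540.5, 10265 and 11098 in WT1 and 17059, 17548 and 18588 in KO1, beside 10553, 10623 and 11348 in WT2 and 10636, 10578 and 10780.0 in KO2. RPS26 was higher in KO1, while KO2 overlapped WT2, and the difference was 0.81 (SE 0.07, adjusted p = 7.94e-07). RPS6, RPL7A and RPL35, which followed, are all on chromosome 9 and were opposite, RPS6 at 0.21 in KO1 and -0.58 in KO2. Of the 11 negative ribosomal protein genes, 10 lie on chromosome 19, and the other was RPL22L1. Outside chromosomes 9, 19 and 21, 30 of 65 were called, 29 positive and 1 negative, with a median of 0.23. MYC and its targets were called for 20 of 61 (32.8%), 14 positive and 6 negative, with a median difference of 0.11. Their median log2 change was 0.42 in KO1 and 0.32 in KO2. Against their own controls, 45 of them rose and 3 fell in KO1, and 44 rose and 3 fell in KO2. Respiratory chain and ATP synthase genes were called for 20 of 82 (24.4%), 11 positive and 9 negative. The call shares of mitosis genes (7 of 36, all positive) and of tissue splicing regulators (5 of 23) lay below the 23.3% of all genes.

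**Figure D3:**
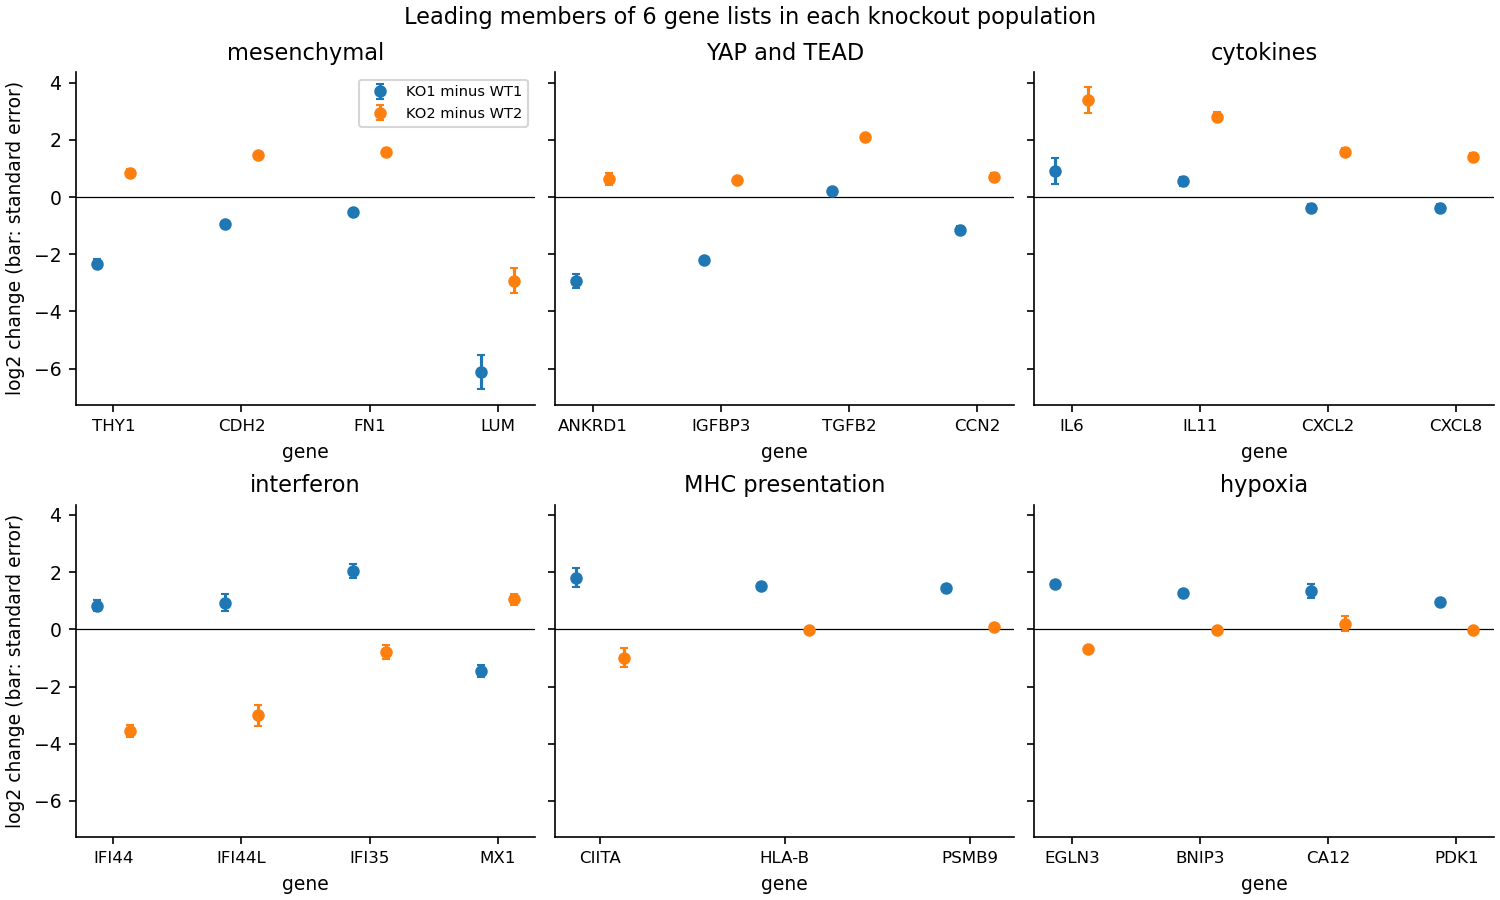
Log2 change with its standard error in KO1 (blue) and KO2 (orange) for leading called members of 6 gene lists, 3 or 4 in each. THY1, CDH2, FN1, ANKRD1, IGFBP3 and CCN2 are below 0 in KO1 and above 0 in KO2, IFI44, IFI44L, IFI35, CIITA and EGLN3 the reverse, and MX1 goes against the other interferon genes.

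Epithelial and urothelial genes split in both directions. Of 22 keratin genes tested, 14 (63.6%) had a called difference, 8 positive and 6 negative, and the median difference was 0.17 (median log2 change 0.03 in KO1 and 0.07 in KO2). KRT14 measured 29.1, 21.6 and 57.9 in WT1 and 348, 332 and 437 in KO1, beside 21.7, 28.2 and 21.4 in WT2 and 8.32, 17.4 and 24.6 in KO2. KRT14, a keratin of basal cells, rose in KO1, while KO2 overlapped WT2, and the difference was 3.82 (SE 0.53, adjusted p = 6.44e-05). KRT13 measured 4565, 4736 and 4812 in WT1 and 724, 819.6 and 716 in KO1, beside 6136, 6546 and 6569.5 in WT2 and 313, 236 and 229 in KO2. KRT13, a keratin of intermediate urothelium and mucosa, fell in both, further in KO2, a difference of 1.98 (SE 0.12, adjusted p = 1.09e-08). KRT80 was opposite (-0.26 in KO1 and 0.94 in KO2), and KRT15 fell in KO2 by 1.19 and measured -0.01 in KO1. Of 21 urothelial differentiation genes tested, 11 (52.4%) had a called difference, 7 positive and 4 negative, and the median difference was 0.13 (median log2 change -0.26 in KO1 and -0.31 in KO2). ELF3 measured 5095, 4974 and 5147 in WT1 and 7412, 6775 and 7596 in KO1, beside 7043, 7156 and 7322 in WT2 and 4889.8, 4764 and 4767 in KO2. ELF3, an epithelial transcription factor, rose in KO1 and fell in KO2, with the WT1 libraries below those of WT2, and the difference was 1.10 (SE 0.06, adjusted p = 6.83e-09). TBX3 was opposite in the other sense (-1.06 in KO1 and 0.22 in KO2). Epithelial junction and keratin genes were called for 10 of 30 (33.3%, beside 23.3% of all genes), 3 positive and 7 negative, with CRB3 and the polarity gene LLGL2 among the negative and KRT5, a basal keratin, among the positive, at 0.47 in KO1 and -0.06 in KO2.

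Of the mucin, CEACAM and OLFM4 genes, 6 of 14 (42.9%) were called, 4 positive and 2 negative, beside 23.3% of all genes. MUC1, a membrane mucin, was opposite (0.87 in KO1 and -1.92 in KO2), with -1.0 for WT1 minus WT2, CEACAM1 was opposite the other way (-0.88 in KO1 and 0.50 in KO2) and MUC4 fell in KO1 by 1.38. OLFM4, a secreted glycoprotein, measured 3.52, 0 and 4.49 in KO1 and 0 in each library of KO2, where it was at least 143-fold lower than WT2. Its knockout libraries overlapped, and its call (fitted difference 4.19) was lost in 5 of 16 alternatives. Clustered protocadherin genes were called for 4 of 34 (11.8%, below that share), 2 positive and 2 negative, with a median difference of -0.50. PCDHB5 led them, rising by 5.73 in KO1 and measuring 0.69 in KO2 (adjusted p = 0.316 in KO2), with a difference of 5.04, or 3.95 without WT2 replicate 3, and PCDHB15 had a difference of 1.76. The negative ones were PCDHB14 (-0.99) and PCDHGB6 (-0.41), whose calls were lost in 8 and 9 of 16 alternatives.

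In metabolism and stress, 12 of 25 cholesterol synthesis genes (48%) were called, 3 positive and 9 negative. LSS, the lanosterol synthase gene on chromosome 21, was opposite (-0.73 in KO1 and 0.27 in KO2). The shares in these lists stand beside 23.3% of all genes tested. ATF4 and unfolded protein genes were called for 16 of 36 (44.4%), 5 positive and 11 negative. The eIF2 phosphatase subunit gene PPP1R15A was opposite (-0.43 in KO1 and 0.88 in KO2) on chromosome 19, with a difference of -1.31, or -1.08 without KO2 replicate 3, its highest library, and PSAT1, an enzyme of serine synthesis on chromosome 9, was opposite in the other sense (0.42 in KO1 and -0.87 in KO2). NRF2 antioxidant genes were called for 12 of 26 (46.2%), 6 in each direction. AKR1C2, an aldo-keto reductase gene that led them at -0.90 in KO1 and 0.91 in KO2, was higher in WT1 than in WT2 by 1.5, and its knockout libraries overlapped. DNA replication genes were called for 13 of 41 (31.7%), 8 positive and 5 negative, and the negative CCNE1, POLD1 and LIG1 all lie on chromosome 19.

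Position along the genome moved with the difference. Medians were taken over the genes tested on each chromosome, as a description with no test. On chromosome 9 the median difference was 0.43 (0.07 in KO1 and -0.40 in KO2), and 364 of its 770 genes were called positive and 14 negative, 49.1% in all. On chromosome 19 the median was -0.39 (-0.39 in KO1 and -0.0076 in KO2), with 92 positive and 464 negative of 1293 (43.0%). Chromosome 21 stood at -0.40 (-0.27 in KO1 and 0.15 in KO2), with 4 positive and 84 negative of 223 (39.5%). Chromosomes 13 and 20 followed with 30.1% and 31.4% called and medians of 0.15 and -0.11. The other chromosomes had 15.5% to 23.1% called and medians from -0.06 to 0.07. Between the controls, no chromosome's median left the range from -0.04 to 0.03.

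The shifts covered long stretches. In bins of 10 Mb with at least 20 genes tested, every bin of chromosome 9 had a median difference between 0.32 and 0.62. Chromosome 19 was at -0.54 over its first 10 Mb, 0.0049 over the next, 0.57 from 20 to 30 Mb, where ZNF90 and ZNF429 lie, and -0.42, -0.55 and -0.33 over the last 3 bins. The first 3 bins of chromosome 20 had medians of -0.41, -0.33 and -0.39, and its other bins lay between -0.13 and 0.05. Chromosome 21 ran from 0.49 over its first 10 Mb to -0.61 from 40 to 50 Mb. On chromosome 13 the bins between 40 and 80 Mb lay at 0.22 to 0.47. The zinc finger run, at a median of 4.94, lay within the last bin of chromosome 19 and went against that bin's median, and the kallikrein run, at -9.65, exceeded it in the same direction. DNA content was not measured in these libraries, and the part of chromosome copy number in the shifts was not tested. Chromosomes 9, 19 and 21 together held 2286 of the genes tested, 1022 of the called differences (22.8%) and 301 of the opposite genes (40.6%). Outside them, 3452 of 16903 genes were called (20.4%), 1697 positive and 1755 negative, with 440 opposite and a median of 0.0070.

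Without the genes of those chromosomes, the mesenchymal list had 14 of 26 called, 1 positive and 13 negative, the YAP and TEAD list 16 of 26, all negative, the chemokine and cytokine list 18 of 27, 5 positive and 13 negative, and the interferon list 18 of 42, 15 positive and 3 negative. MHC presentation genes, EGF receptor and ligand genes, heparan sulfate genes and keratins have no tested member there. Respiratory chain genes, with 10 of 66 called, 9 positive and 1 negative, lost 8 of their 9 negative genes.

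Promoter windows from RefSeq (GRCh38.p14) were found for 12486 of the 19189 genes tested and searched for CG, for TATAAA on both strands and for CACGTG, which reads the same on both strands. Genes higher in KO1 and lower in KO2 (260 of 325 with a window) held a median of 27 CG, and 11.2% of their windows held TATAAA and 11.5% CACGTG. The reverse class (335 of 416) also held a median of 27 CG, with 6.87% and 8.36%. Over all windows of tested genes the median was 25, with 6.21% and 9.84%. Genes changed in KO1 alone and KO2 alone both had a median of 26 CG. TATAAA was thus found in a larger share of windows of genes higher in KO1 than of all genes, and zinc finger genes of that class are related copies, so their windows are not independent. The shares were not tested, and a match describes letters, not a bound site.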

How the data were processed

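RNA-seq libraries were made from total RNA of 5637 cells, with a kit that the labels and the methods of the study name differently. The submitters' processing notes name Trimmomatic 0.36, featureCounts of Subread 1.5.1 and GRCh38, and the methods name Cutadapt, Trimmomatic, FastQC, HISAT2, StringTie and DESeq2. The annotation release and strand setting are not given in the sources used here. The deposited table holds raw read counts per Ensembl gene, made by the authors. In all 12 libraries a count of 4 was more frequent than a count of 3 (835 to 1029 against 707 to 897 genes). Every column of the 12 libraries was matched to a label. Symbols were found for 16701 and GENCODE v29 positions for 18888 of the 19189 genes tested.

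Genes were kept by filterByExpr (minimum count 10), scaled by TMM and fitted with edgeR 4.0.16 (R 4.3.3, limma 3.58.1) with 1 mean per group over the 12 libraries. Quasi-likelihood tests covered the difference, each knockout against its control, KO1 against KO2 and WT1 against WT2. Benjamini-Hochberg adjustment ran over the whole table of each test, and 0.05 was the threshold. A gene was called opposite when the difference and both knockout tests passed and the knockouts had opposite signs. On simulated data for this comparison (19189 genes, 200 changed) the script recovered 41% at a log2 difference of 0.5 and 80% at 1, and called 8 unchanged genes. With 3 libraries against 3, an exact permutation test of a single gene cannot go below p = 0.1, so none is given. Folds against a group with at most 3 normalized counts in each library are lower bounds, set against 3 counts per library. Intervals and floors cover counting error only.

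The comparison and the gene lists were chosen with earlier results of these data known. RBPMS and ANKRD10 were always named. The other genes had a symbol, a called difference and a mean of 50 or more normalized counts, and were chosen in 4 ways. The first were the 6 opposite genes in each sense, free of overlap with their controls, whose smaller change was largest. The second were the 3 rises and 3 falls with the largest difference in 1 population and an absolute log2 change under 0.2 in the other. The third were the 3 rises and 3 falls with the largest difference among genes moving the same way without overlap. The fourth were up to 4 called members of each list by size of the difference. VIM, CD74, HLA-DRA, CCL20, TNFSF10, RPL22L1, KLK7, KLK9 and the other genes of the chromosome 19 runs were chosen after their values were seen. Alternatives were DESeq2 1.42.0, its size factors, no filter on low counts, a replicate block, stricter calls, other uses of the controls, leaving out each library and leaving out chromosomes 9, 19 and 21, the last chosen after seeing the data. Some genes that the rule named are not reported here.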

Additional observations from a re-analysis of the deposited data

Results flagged for a closer look

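Each result below was singled out because the responses of the 2 populations differed by the test of the difference itself in edgeR, which 4474 genes passed, and no explanation was tested. The targeted gene and the splicing target fell further in KO1, with differences of -0.36 for RBPMS and -0.42 for ANKRD10. On the log2 scale, the genes higher in KO1 and lower in KO2 had differences of 8.88 for ZNF320, 8.53 for SERPINB9, 8.41 for ZNF888, 10.90 for ZNF321P, 7.19 for ZNF347 and 10.62 for ZFP69. The genes lower in KO1 and higher in KO2 had -10.51 for KLK6, -9.65 for KLK10, -11.01 for KLK5, -11.75 for NALF1, -8.07 for TMPRSS11E and -5.68 for GABRQ. For genes changed in KO1 alone the values were 5.45 for ZNF90, 3.90 for ZNF429, 3.08 for ZNF732, -10.43 for SIGLEC10-AS1, -9.49 for SIGLEC10-AS2 and -6.41 for CRB3. For those changed in KO2 alone they were -3.42 for CREB5, -1.95 for RNASE7, -1.88 for C15orf48, 11.40 for MAP10, 6.89 for MDFIC and 4.21 for CXXC4. Among genes that moved the same way in both, they were 6.62 for SPANXC, -3.61 for HEPHL1, -2.25 for IL11, -9.46 for IGFBP5, -8.52 for GPC4 and -8.29 for POF1B. A group of ZNF321P, ZFP69, KLK5, NALF1, SIGLEC10-AS1, SIGLEC10-AS2, MAP10, SPANXC, IGFBP5 and POF1B was at or near 0 in all its libraries, so the fitted values of these genes depend on the prior count and are not bounds. The same holds for ZNF320, SERPINB9, KLK6, KLK10, GABRQ and GPC4 once the 1 library with counts in their lowest group is left out.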

How the results depend on the processing

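The counts of called genes moved by less than 1.5 times under most alternatives. With DESeq2's size factors 4437 genes were called for the difference and 742 were opposite, with the DESeq2 test 4911 and 821, and with no filter on low counts (33618 genes tested) 3770 and 571. Leaving out 1 library at a time gave 3782 to 4308 called, 1718 to 2001 positive, 2020 to 2307 negative and 607 to 708 opposite. Fitting each knockout with its own control alone gave 726 opposite genes, and using all 6 controls for both gave 775. Calls beyond that range came from stricter rules and from fewer genes: an adjusted p under 0.01 left 2819 called, 1244 positive and 413 opposite, an absolute log2 difference of at least 1 left 1059 called, 462 positive, 597 negative and 264 opposite, and leaving out the genes of chromosomes 9, 19 and 21 left 440 opposite. Whether the replicate numbers shared by the labels pair the libraries was not settled. Over the genes tested, 18 correlations between deviations of same-numbered libraries ran from -0.017 to 0.056. The 36 between unlike numbers ran from -0.063 to 0.037. Such correlations can miss a pattern held by fewer genes, and RPL35 rose from replicate 1 to replicate 3 in every group. A fit with a replicate block called 4476 differences and 734 opposite genes.

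Of 2320 values of named genes under single alternatives, 2233 kept their side of the threshold, 87 lost the call with the same sign and none reversed. The lost calls belonged to 12 of 145 genes, CA12, COL16A1, ERBB4, FOXC1, HS6ST3, ITGB2, MAP2, OLFM4, OVOL1, PCDHB14, PCDHGB6 and SPANXC, and the cause was not tested. Of 558 list medians, 494 moved by less than the spread between libraries and 64 by more. Among all 558, 17 changed sign, in 5 lists: the endothelial and the fibroblast and smooth muscle markers, the NRF2 antioxidant genes, the mucin, CEACAM and OLFM4 genes and the ZNF genes of chromosome 19. With 3 libraries a group, changes of a log2 of 0.5 were recovered less often on simulated data than changes of 1, so a gene without a call may still differ by that much.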
